A study of Mus musculus with 4 samples.

Results

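Connexins are the subunits of gap junctions. Connexins of 1 cell assemble into a hemichannel, and hemichannels of adjoining cells dock into a channel that passes ions and small metabolites from cytoplasm to cytoplasm. In the dorsal root ganglion (DRG), satellite glial cells (SGC), which wrap the cell bodies of sensory neurons, are coupled in this way, Schwann cells use connexins within the myelin sheath, and vessel walls use them to couple endothelial and mural cells. The 8 connexin genes described here are *Gja1* (Cx43), *Gja4* (Cx37), *Gja5* (Cx40), *Gjb1* (Cx32), *Gjb2* (Cx26), *Gjb6* (Cx30), *Gjc1* (Cx45) and *Gjc3* (Cx29). They were taken by symbol from the 33456 genes listed in the single cell matrices and followed through every library, condition and marker-gated cell type.

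Single cells came from DRG of C57BL/6 mice aged 8 to 12 weeks. There were 2 libraries of uninjured ganglia (control) and 2 libraries from day 3 after a crush of the sciatic nerve (injury), and the design text calls the pair in each condition biological replicates. The reporting summary says that a batch pooled cells of several mice, so a library is not 1 animal. The labels name L4 ganglia and the methods L4 and L5, and the crush protocol is entered for all 4 samples although the titles separate uninjured from injured ones. All 4 suspensions were prepared alike, by papain and collagenase digestion and sorting of live cells. Values for libraries are given in the order control 1, control 2, injury 1, injury 2, where the number 2 comes from the labels and the other library of each condition is called number 1.

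The matrices held 6975 barcodes and between 5585909 and 11210875 unique molecular identifiers (UMIs, 1 for each captured RNA molecule) per library. The limits of the methods, stated there for total reads and applied here to UMIs, kept 6095 cells with a median of 3763 UMIs, and 20 barcode sequences occurred in more than 1 library. The libraries numbered 2 were deeper, with medians of 4054 and 4845 UMIs per cell against 2775 and 3110 in those numbered 1. Marker gates that contain no connexin assigned 5240 cells (86.0%) to 1 of 18 types, each named with the ending -like. Every listed marker was present and higher than in the other cells in all gates but the macrophage gate, where 10 of 11 were. The monocyte-like cells were led by *Elane*, *Mpo* and *Prtn3*, which are granule genes of myeloid precursors, and the neuron-like cells were few (53), as 169 more barcodes with neuronal markers were removed by the limits. A level is given as CPM, the UMIs of a gene scaled to the total UMIs of the summed cells, and compares 1 gene across cells or libraries. These are tags from the 3′ end of transcripts and carry no length scale, so tallies of UMIs over several genes describe what was captured and do not rank genes by expression.

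Over all 4 libraries the filtered cells held 1834 UMIs of *Gja1*, 1225 of *Gja4*, 935 of *Gjc3*, 474 of *Gjc1*, 340 of *Gjb6*, 302 of *Gjb1* and 131 of *Gjb2*. The libraries divided them differently, as *Gja1* had 154, 715, 443 and 522 UMIs, *Gja4* 452, 200, 445 and 128, and *Gjc3* 159, 155, 472 and 149, so that *Gja1* had the most UMIs in the libraries numbered 2 and not in those numbered 1. *Gja5* had 3 UMIs in all 4 libraries together and was left without a test, as the tests asked for at least 20 UMIs. Removed barcodes held a further 365 *Gja1* UMIs, the most of any of the 8 genes, and 378 of the 880 removed barcodes carried SGC markers. Of the connexin genes outside this set, *Gjb5* reached 187 UMIs over all barcodes.

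*Gjb2* and *Gjb6* are neighbours on chromosome 14, separated by 18.6 kb in GRCm38 (GENCODE annotation, chr14:57098600-57104702 and chr14:57123303-57133611, both on the minus strand). RefSeq start sites (GRCm38.p6) were found for 7 of the 8 genes, and *Gjc1* had no entry. The 250 bases before the start are shown for 2 of the gene pairs that shared a cell type in these data, *Gjb2* with *Gjb6* (connective tissue-like cells) and *Gjb1* with *Gjc3* (Schwann-like cells). Each reads 5′ to 3′ in the direction of its gene, and capitals mark matches on either strand to the motifs searched. The GC box was spelled GGGCGG. The letters for SOX-type factors were ACAAAG. The TATA box was TATAAA, and the AP-1 site, which responds to growth and stress signals, was TGACTCA. The windows are chr14:57104703-57104952 (minus) for *Gjb2*, chr14:57133612-57133861 (minus) for *Gjb6*, chrX:101383482-101383731 (plus) for the last of 4 listed starts of *Gjb1*, and chr5:137963099-137963348 (minus) for *Gjc3*.
Gjb2: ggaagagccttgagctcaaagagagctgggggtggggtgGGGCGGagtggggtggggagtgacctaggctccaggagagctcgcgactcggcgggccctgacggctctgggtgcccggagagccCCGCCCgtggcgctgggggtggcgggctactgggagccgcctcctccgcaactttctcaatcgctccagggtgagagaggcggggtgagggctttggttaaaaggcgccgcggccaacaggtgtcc
Gjb6: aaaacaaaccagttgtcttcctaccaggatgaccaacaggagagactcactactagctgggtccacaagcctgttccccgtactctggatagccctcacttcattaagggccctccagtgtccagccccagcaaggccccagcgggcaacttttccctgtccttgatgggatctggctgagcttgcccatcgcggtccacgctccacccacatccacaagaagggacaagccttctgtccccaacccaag
Gjb1: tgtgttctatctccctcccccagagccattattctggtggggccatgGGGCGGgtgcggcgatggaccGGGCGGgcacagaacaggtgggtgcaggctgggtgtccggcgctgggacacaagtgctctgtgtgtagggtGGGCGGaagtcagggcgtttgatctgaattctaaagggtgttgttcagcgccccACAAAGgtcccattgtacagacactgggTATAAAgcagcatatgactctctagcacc
Gjc3: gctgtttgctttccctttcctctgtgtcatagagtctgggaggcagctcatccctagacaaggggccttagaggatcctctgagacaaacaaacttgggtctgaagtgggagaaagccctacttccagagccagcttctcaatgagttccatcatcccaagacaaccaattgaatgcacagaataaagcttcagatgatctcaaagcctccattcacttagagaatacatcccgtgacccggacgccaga
These upstream windows differ in composition. The *Gjb2* window held 18 CG dinucleotides and 2 GC boxes, whereas that of its neighbour *Gjb6* held 5 CG dinucleotides and none of the motifs, against a median of 6 CG dinucleotides over all 32851 windows. The *Gjb1* window held 3 GC boxes, 1 SOX-type match and 1 TATA box, and the *Gjc3* window held no match. Of all windows, 32.7% contained the GC box, 16.5% the SOX-type letters, 12.4% the TATA box and 4.46% the AP-1 letters. Among the windows not shown, *Gja1* had 1 AP-1 match, *Gja4* 1 GC box, and *Gja5* 1 GC box and 1 SOX-type match. The other listed starts of *Gjb1* held no GC box and no TATA box, between 1 and 4 CG dinucleotides, and in the first of them 1 SOX-type match.

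To ask where each connexin was expressed, the summed UMIs of the 9 types with at least 10 cells in every library were compared in 1 model. The test was the quasi-likelihood F-test of edgeR, blocked by library and Benjamini-Hochberg adjusted over all genes, separately for each type. A call for a type required an adjusted p under 0.05 together with a log2 difference of at least 2 from the mean of the other types, the thresholds of the study. That mean was taken on the log scale, where types without UMIs pull it down. A higher call can thus fall on a type below the mean CPM of the others, as for *Gjb1* in SGC-like cells (3.82 against 46.9 CPM). The 7 testable connexins made 15 higher calls among 63 gene-type pairs, against 8.97% of the pairs of all genes. Each of the 7 was called in 1 to 3 types, none was called higher in macrophage-like, monocyte-like or dendritic-like cells (8.75%, 6.81% and 6.54% of all genes), and *Gja4* shared its types with *Gjc1*, as did *Gjb1* with *Gjc3*. By type the background was 11.8% of genes in SGC-like, 7.27% in Schwann-like, 9.63% in endothelial-like, 9.70% in mural-like, 10.6% in connective tissue-like and 9.62% in mesenchymal-like cells. Because several types held no UMI of a gene, the size of a difference from the mean of all other types depends on the prior count, and sizes below come from contrasts between named neighbours in the order of levels. That order was read from the same values. Of 28 such contrasts 14 had an adjusted p under 0.05.

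**Figure D1:**
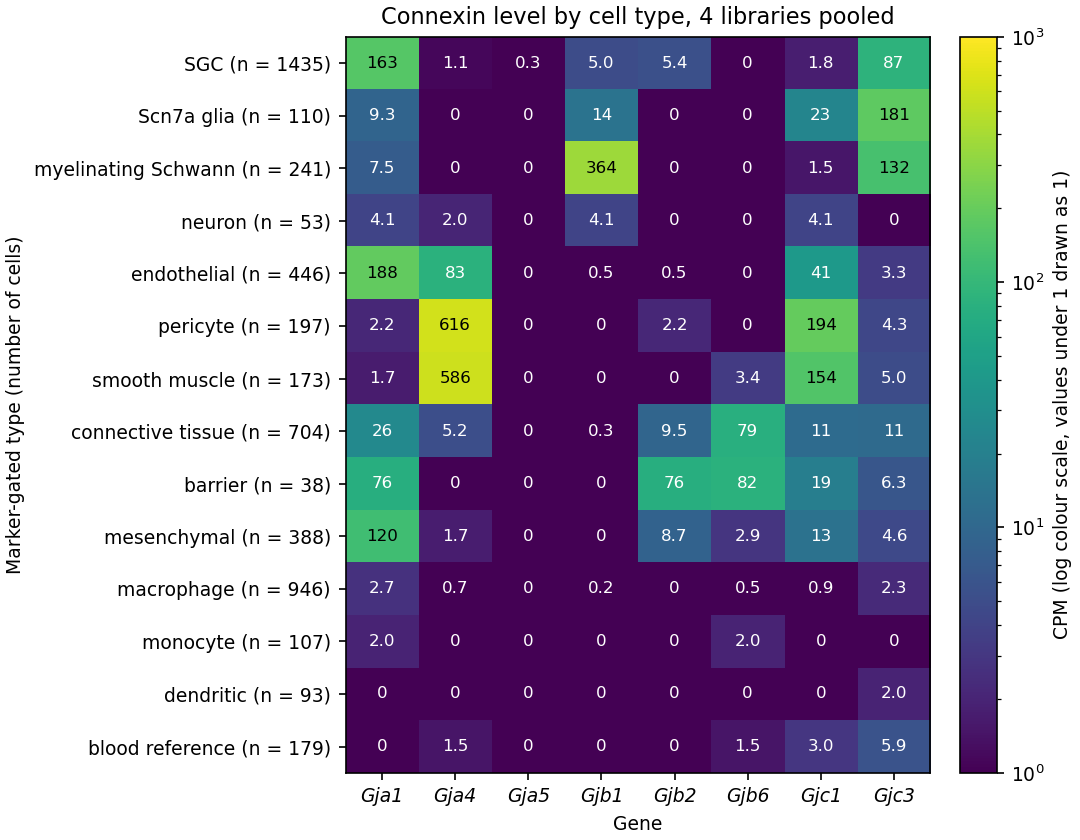
Level of each connexin (columns) in the cells of each type pooled over 4 libraries (rows), in CPM on a log colour scale, with values under 1 drawn as 1. *Gja1* is strong in SGC-like, endothelial-like and mesenchymal-like cells, and *Gjc3* in SGC-like and Schwann-like cells and in the *Scn7a* glia row. *Gjb1* is strong in Schwann-like cells, *Gja4* and *Gjc1* in the mural cells, and *Gjb6* in connective tissue-like and barrier-like cells, while *Gja5* is nearly empty.

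SGC-like cells carried *Gja1* and *Gjc3*. Of the 1625 connexin UMIs in 1435 SGC-like cells, 1003 were *Gja1* and 538 *Gjc3*. The libraries differed in this balance, with 31 *Gja1* and 43 *Gjc3* UMIs in control 1 and 280 and 288 in injury 1, but 410 and 110 in control 2 and 282 and 97 in injury 2. *Gja1*, which encodes the main connexin of astrocytes and of many other coupled cells, stood at 149, 197, 117 and 192 CPM (mean 164 ± 38.0, SD, n = 4 libraries), with the libraries numbered 2 above those numbered 1. It was called higher in SGC-like cells (adjusted p = 8.48e-26, edgeR), and 43.0% of these cells (617 of 1435) had a *Gja1* UMI, against 0 of 179 T, B, neutrophil and erythroid cells (blood cells, median 3402 UMIs), a count that leaves room for at most 1.68%.

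*Gja1* was not restricted to glia. Endothelial-like cells had 270, 185, 144 and 196 CPM (199 ± 52.3), which overlapped the SGC-like values, and the contrast between both types was -0.03 on the log2 scale (SE 0.18, 95% interval -0.39 to 0.34, adjusted p = 0.943). Mesenchymal-like cells followed with 126, 111, 92.1 and 146 CPM (119 ± 23.1). The step from SGC-like to mesenchymal-like cells was 0.71 (SE 0.20, adjusted p = 0.00290), but without control 2 it was 0.40 (adjusted p = 0.235). Connective tissue-like cells were lower again, at 25.4, 22.4, 25.3 and 31.3 CPM, a step of 1.87 (SE 0.25, adjusted p = 1.85e-08) below mesenchymal-like cells. The mural types were almost without it, as 1 of 197 pericyte-like and 1 of 173 smooth muscle-like cells had a UMI.

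*Gjc3* encodes a connexin of myelinating glia. Its levels in SGC-like cells were 207, 52.8, 120 and 66.2 CPM (111 ± 69.8), and in Schwann-like cells 179, 50.4, 169 and 79.6 CPM (120 ± 64.4). The libraries ranked in the same way in both types, with those numbered 1 above those numbered 2. Both types were called (adjusted p = 6.98e-24 and 1.41e-17, edgeR) and did not differ from each other by more than their spread (log2 difference 0.04, SE 0.27, 95% interval -0.50 to 0.59, adjusted p = 0.963). The next type, connective tissue-like, had 15.8, 7.46, 7.78 and 11.9 CPM, below SGC-like cells by 3.16 (SE 0.29, adjusted p = 1.30e-13, 8.97-fold). Its share of cells with a *Gjc3* UMI, 3.98%, lay within the interval of the blood cells (2.23%, exact binomial 95% interval 0.612 to 5.62), so no expression is read from it.

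*Gjc3* UMIs were also found outside the SGC-like and Schwann-like cells. In 110 cells gated on *Scn7a* and other genes of glia that do not form myelin, *Gjc3* reached 181 CPM pooled, from 12, 2, 22 and 3 UMIs, and *Gja1* had 2 UMIs. The 350 cells below every gate, which have no type here, held 118 *Gjc3* UMIs in 81 cells, at 164, 23.5, 155 and 52.4 CPM, beside 22 *Gjb6*, 13 *Gja1* and 8 *Gja4* UMIs. The 104 cells that met both the SGC and the *Scn7a* gate held 49 *Gjc3* and 10 *Gja1* UMIs, and 78 of these cells came from injury 1.

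Schwann-like cells were marked by *Gjb1*, the connexin of myelin that is mutated in X-linked Charcot-Marie-Tooth neuropathy. They had 306, 497, 333 and 363 CPM (374 ± 84.6), and 72.0% of their 336 connexin UMIs were *Gjb1*. The libraries of the 2 conditions overlapped. *Gjb1* was called in Schwann-like cells (adjusted p = 1.38e-29, edgeR), above SGC-like cells by 5.94 on the log2 scale (SE 0.30, adjusted p = 6.22e-21, 61.2-fold). A UMI was present in 46.9% of Schwann-like cells (113 of 241).

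*Gjb1* and *Gjb2* were also called in SGC-like cells, at low levels. *Gjb1* stood at 0, 3.84, 6.67 and 4.78 CPM, from 0, 8, 16 and 7 UMIs, where the limit that a count of 0 allows in control 1 is 14.4 CPM. The call (adjusted p = 4.77e-05, edgeR) was lost with DESeq2 (log2 difference 1.77) and without injury 1 (1.95), where the difference was below 2. *Gjb1* UMIs were in 2.09% of SGC-like cells (exact binomial 95% interval 1.42 to 2.97), against 0 of 179 blood cells. The limit that this count of 0 allows, given above for *Gja1*, lies within the interval, so the blood cells do not set this share apart. Markers of myelinating Schwann cells summed to 57.5 to 76.9 CPM in SGC-like cells, with all 10 detected, and their part in the *Gjb1* UMIs was not tested.

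The gap junction genes of SGC-like cells were detected together with other genes of glial coupling. Of 10 genes for potassium, glutamate and water handling, 8 were called higher in SGC-like cells, against 11.8% of all genes. Among them were *Kcnj10* (Kir4.1, the potassium channel of SGC), *Slc1a3* and *Slc1a2* (glutamate transporters), *Aqp4* (water channel) and *Hepacam* (adhesion protein of astrocyte junctions). Not called there were *Glul*, which was called in endothelial-like cells, and *Kcnk1*, which was called in Schwann-like cells. The median log2 difference of the 10 genes was 5.83, against 0.31 over all genes, and *Kcnj10* and *Mlc1* are themselves gate markers. In Schwann-like cells 4 of the 10 were called, against 7.27% of all genes. Of 18 genes for partners and turnover of connexins, 3 were called in SGC-like cells (*Cdh2*, *Ezr* and *Src*, median 0.59 over the list), beside 11.8% of all genes. Among Schwann-like cells 6 were called (*Cav1*, *Cdh2*, *Dbn1*, *Ezr*, *Mapk3* and *Nov*, median 0.82 against -0.22 over all genes), beside 7.27%. *Nov* encodes a matricellular protein that binds the tail of Cx43, and *Dbn1* the actin-binding protein drebrin. Schwann-like cells held only 5 UMIs of *Gja1*, the gene of Cx43 (7.64 CPM, not called). *Nov* was also called in mural-like and mesenchymal-like cells.

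Mural cells, the contractile and pericyte cells of the vessel wall, expressed *Gja4* and *Gjc1*. *Gja4* stood at 753, 396, 653 and 449 CPM (563 ± 168) in 482 mural-like cells, with the libraries numbered 1 above those numbered 2. Pericyte-like and smooth muscle-like cells had 616 and 586 CPM pooled. Mural-like cells exceeded endothelial-like cells, which had 67.5, 96.5, 61.6 and 86.9 CPM (78.1 ± 16.3), by 2.74 on the log2 scale (SE 0.23, adjusted p = 3.83e-14, 6.69-fold). No library of the endothelial-like cells reached the lowest mural-like value. Endothelial-like cells in turn exceeded connective tissue-like cells by 3.71 (SE 0.38, adjusted p = 1.02e-11, 13.1-fold), and both vascular types were called for *Gja4* (adjusted p = 5.12e-33 and 9.21e-18).

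*Gjc1*, a connexin of vascular and cardiac conducting cells, had 189, 253, 173 and 164 CPM (195 ± 40.0) in mural-like cells and 27.0, 52.8, 31.9 and 36.5 CPM (37.1 ± 11.2) in endothelial-like cells. The groups of cells did not overlap, and the difference was 2.39 (SE 0.25, adjusted p = 1.21e-11, 5.23-fold). Endothelial-like cells exceeded connective tissue-like cells (9.69, 11.2, 9.73 and 14.9 CPM) by 1.44 (SE 0.32, adjusted p = 0.000248, 2.71-fold). Connective tissue-like and mesenchymal-like cells (4.68, 16.2, 6.82 and 16.7 CPM) were not separated, with a difference of 0.13 (95% interval -0.71 to 0.96, adjusted p = 0.956).

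The mural connexins were found in the same cells. A *Gja4* UMI was present in 67.6% of mural-like cells (326 of 482) and a *Gjc1* UMI in 38.4% (185). Of the cells with *Gjc1*, 75.7% (140) also had *Gja4*. In endothelial-like cells, 58.7% of the 92 cells with *Gja4* also had *Gja1*, which was present in 48.2% of all 446. In SGC-like cells, 38.3% of the 410 cells with *Gjc3* also had *Gja1*, against 43.0% of all SGC-like cells. These shares are descriptive, as cells with more UMIs in total are more likely to show both genes.

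*Gja5*, known as an arterial endothelial connexin in larger vessels, had no UMI in 446 endothelial-like cells, so that at most 0.673% of them could carry one at this depth. Its 3 UMIs were 2 in SGC-like cells of control 2 and 1 in a cell of more than 1 gate. Endothelial-like cells did hold genes of arteries, as 7 of 8 testable arterial genes were called in them, against 9.63% of all genes. They included *Bmx*, *Hey1*, *Dll4*, *Efnb2* and *Sema3g* (median log2 difference 4.38 over the list, against 0.13 over all genes). The other arterial genes called were *Alpl* and *Sox17*, the latter a gate marker. The list was not particular to vessels, as 4 of the 8 were also called in SGC-like cells, against 11.8% of all genes. These were *Alpl*, *Fbln2*, *Hey1* and *Sema3g* (median over the list 2.23, against 0.31 over all genes). Of the venous genes 4 of 7 were called in endothelial-like cells (*Ackr1*, *Lrg1*, *Selp* and *Vwf*), and of the lymphatic genes 4 of 5, against the same 9.63%.

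**Figure D2:**
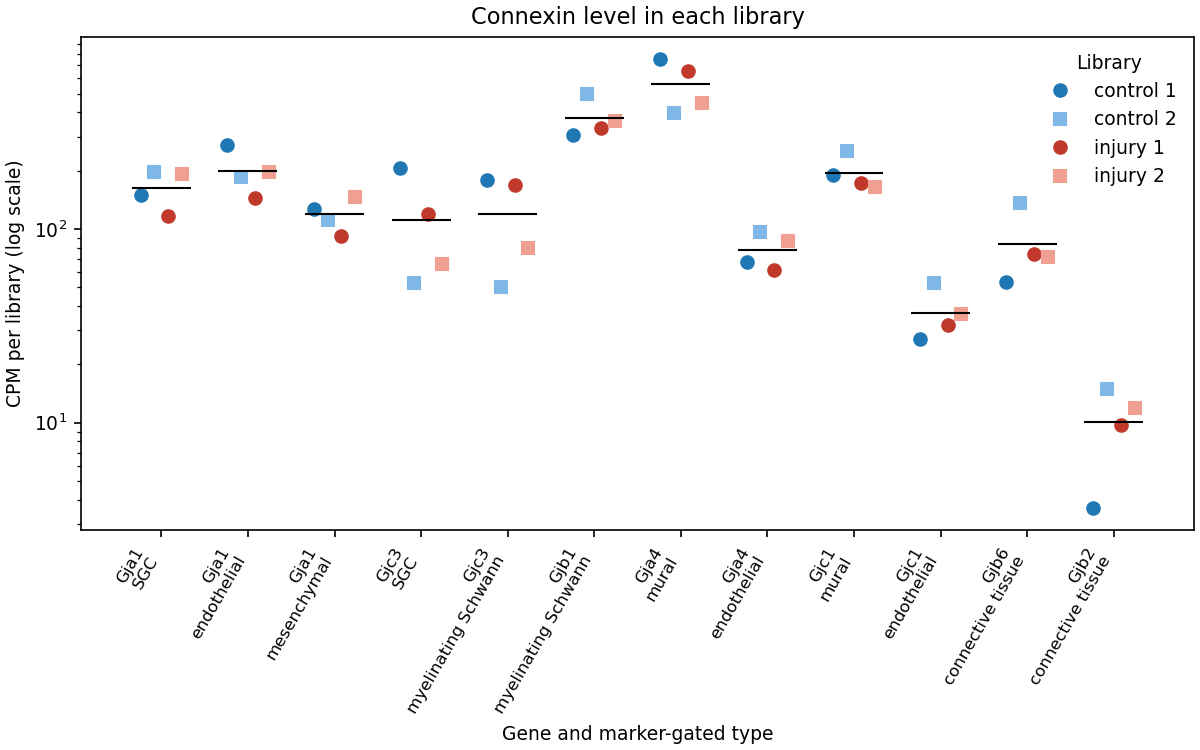
CPM of a connexin in a cell type (12 gene-type pairs) for each of the 4 libraries on a log axis, with a line at the mean. The control and injury libraries overlap in every pair shown except *Gjc1* in mural-like cells, where both control libraries (189 and 253 CPM) lie above both injury libraries (173 and 164 CPM).

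The endothelial-like cells were split further by their arterial, venous and lymphatic genes, with gate markers left out. This gave 96 arterial, 119 venous and 5 lymphatic cells, and 226 of neither kind. *Gja4* stood at 236, 140, 134 and 189 CPM in the arterial cells, the first from 8 cells and 10 UMIs, and at 0, 14.5, 6.92 and 34.2 CPM in the venous cells. Every arterial value lay above every venous value, and the difference was 3.12 on the log2 scale (SE 0.39, 95% interval 2.34 to 3.91, adjusted p = 3.31e-08, edgeR with library as a block, 8.71-fold). With *Gja1* below, 2 of the 3 connexins tested were higher in arterial cells, against 2.20% of 6239 genes. No enrichment is read from this tally. *Gja4* had 84 arterial and 12 venous UMIs, so it met the UMI minimum of the tests through the arterial cells. The *Gja1* result depended on single libraries. The *Gja4* difference stayed between 2.90 and 3.78 when each library was left out. A *Gja4* UMI was present in 42.7% of arterial and 7.56% of venous cells, at medians of 5135.5 and 5079 UMIs per cell.

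*Gja1* was higher in arterial cells too, at 473 (20 UMIs in the same 8 cells), 275, 201 and 231 CPM against 103, 140, 131 and 171 CPM in venous cells, with no overlap. The difference of 0.86 (SE 0.23, 95% interval 0.41 to 1.32, adjusted p = 0.0118) was no longer past the threshold without control 1 (0.65, adjusted p = 0.127), control 2 (0.77, adjusted p = 0.325) or injury 1 (0.91, adjusted p = 0.0616). *Gjc1* overlapped between the zones, at 23.6, 38.1, 9.56 and 35.0 against 34.2, 62.9, 34.6 and 21.4 CPM (log2 difference -0.47, 95% interval -1.47 to 0.53, adjusted p = 0.852). Markers of mural cells were low in both zones. Pericyte markers summed to 0 to 105 CPM in arterial and 17.1 to 120 CPM in venous cells, and smooth muscle markers to at most 9.56 and 9.68 CPM. The 5 lymphatic cells held 23 *Gja4* UMIs, in 3 cells.

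**Figure D3:**
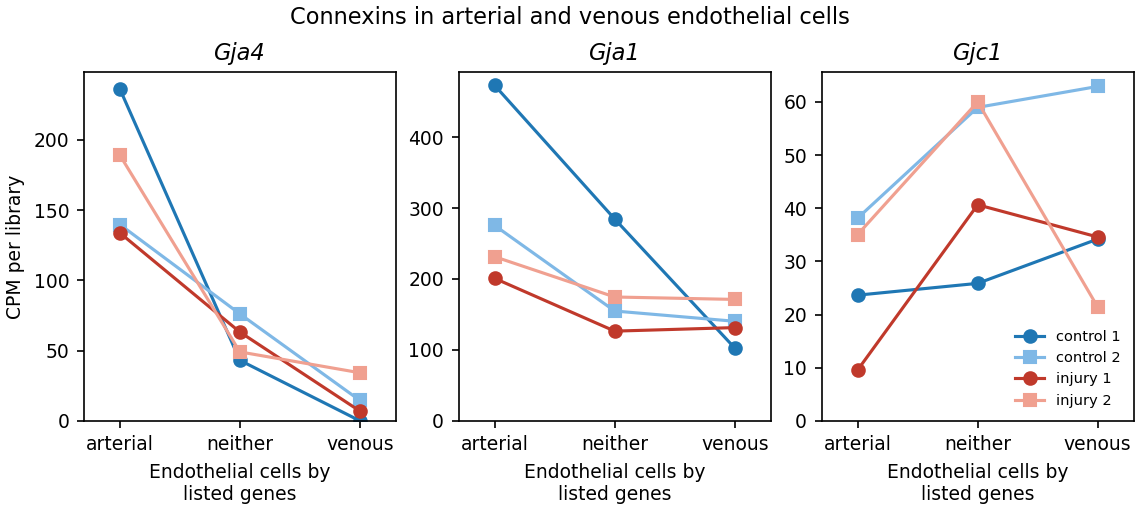
CPM of *Gja4*, *Gja1* and *Gjc1* in endothelial-like cells with arterial genes, with neither set and with venous genes, 1 point per library. The arterial points of *Gja4* (134 to 236 CPM) and *Gja1* (201 to 473 CPM) lie above all venous points, while those of *Gjc1* overlap.

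*Gjb6* and *Gjb2*, the neighbours on chromosome 14, encode connexins of the cochlea and of meningeal cells. *Gjb6* was detected in connective tissue-like cells, which are fibroblast-type cells with *Lum* and *Osr2*, and made up 55.5% of their 434 connexin UMIs. It stood there at 53.3, 136, 74.0 and 71.6 CPM (83.8 ± 36.2), with control 2 above the other libraries. *Gjb6* was called in connective tissue-like cells (adjusted p = 1.15e-22, edgeR), where it had 241 UMIs. No other type was called, but none of the others in this fit held more than 5 *Gjb6* UMIs. With so few UMIs a call in another type was hardly possible, so the missing calls do not test restriction. The next type, mural-like, held 2 *Gjb6* UMIs in 1 of 482 cells, and 0 of 1435 SGC-like cells had a UMI, a limit of 0.209%. The contrast of connective tissue-like with mural-like cells had an adjusted p of 7.81e-11 with edgeR and of 0.277 with DESeq2, and its size is not given because of the few mural-like UMIs.

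*Gjb2* was low in all types with enough cells to test. Connective tissue-like cells had 3.64, 14.9, 9.73 and 11.9 CPM, from 3, 8, 10 and 8 UMIs, mesenchymal-like cells had 14.0, 6.77, 6.82 and 10.5 CPM, and SGC-like cells between 4.81 and 5.76 CPM in all 4 libraries. The connective tissue-like values overlapped those of both other types, and neither contrast between neighbours passed the test (0.44, 95% interval -0.56 to 1.44, adjusted p = 0.679, and 0.49, interval -0.52 to 1.51, adjusted p = 0.508). All 3 were called against the mean of the other types (adjusted p = 5.91e-08, 2.83e-05 and 2.22e-05 in that order), though with DESeq2 the SGC-like call was lost (1.85). In SGC-like cells a *Gjb2* UMI was in 2.23% of cells (95% interval 1.53 to 3.13), against 0 of 179 blood cells. As for *Gjb1*, the limit of that 0 lies within the interval, so the blood cells do not set this share apart.

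The highest *Gjb2* levels were in small sets of cells that met the barrier gate. Its markers were *Kcnj13*, *Thbs4*, *Stra6*, *Lypd2*, *Cxadr*, *Dleu7*, *Klf5*, *Cldn1* and *Krt19*. The 38 barrier-like cells had *Gjb2* at 108 CPM (8 UMIs) in control 2 and 60.7 CPM (4 UMIs) in injury 2, the libraries with at least 10 such cells. *Gjb6* there was at 149 and 15.2 CPM, and *Gja1* at 81.1 and 91.1 CPM. The 22 cells that met both the barrier and the connective tissue gate held 21 *Gjb2* UMIs (202 CPM) and 41 *Gjb6* UMIs (394 CPM), above either gate alone. These sets were too small for a test, and cells of more than 1 gate may hold RNA of more than 1 cell.

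*Gjb2* and *Gjb6* UMIs fell in part in the same connective tissue-like cells, as 14 of the 25 cells with *Gjb2* (56.0%) also had *Gjb6*, which was in 19.6% of all 704. *Gjb5*, a connexin of skin and placenta, followed a like pattern. It averaged 41.3 ± 7.19 CPM (SD, n = 4) in connective tissue-like and 22.6 ± 10.8 CPM in mesenchymal-like cells, and was called in both (adjusted p = 2.24e-17 and 4.09e-10, edgeR). A *Gjb5* UMI was present in 14.5% of connective tissue-like cells (102 of 704).

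The genes whose levels followed each connexin most closely were picked by Pearson's r over 36 library-by-type values of log2(CPM + 10), among 13457 genes that are neither connexins nor gate markers. The points share libraries and cell types, so r describes the pattern. *Gjb1* was followed by *Otop1* (r = 0.99), *Ddn* and *St8sia5*, *Gjc3* by *Tmprss5* (0.95), *Zfp536* and *Nav3*, and *Gja1* by *Plscr2* (0.92), *Mpzl1* and *Bsg*. *Gja4* and *Gjc1* both had *Tinagl1* among their 3 closest genes (0.96 and 0.93). *Gjb6* was followed by *Srpx2* (0.96), *Hpca* and *Ttr*, and *Gjb2* by *Echdc2* (0.93), *Col11a1* and *Fzd2*.

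The question the study's design puts to these genes is whether they changed in the ganglion 3 days after nerve crush. Injury and control libraries were compared within each cell type on summed UMIs (edgeR, n = 2 libraries per condition). In 18 tests of 7 connexins over 6 types, none was called, and none had an unadjusted p under 0.05 with edgeR. Over all genes the share with such a p ran from 1.27% to 4.78% in these 6 types. DESeq2 also made 0 calls. Over all genes and types 0.0117% were called, all of them in connective tissue-like cells (7 of 8663 genes, 0.0808%). An unadjusted p under 0.05 was found for 414 genes there (4.78%) and for 129 in SGC-like cells (1.27%). The log2 differences of the connexins lay between -0.34 and 0.83, 6 above and 12 below 0, with SEs of 0.28 to 0.73 and adjusted p of at least 0.971. An exact permutation test on 2 against 2 libraries could not fall below p = 0.333.

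*Gja1* in SGC-like cells differed by -0.14 between injury and control (SE 0.32, 95% interval -0.87 to 0.60), where the means were 155 and 173 CPM and the conditions overlapped. *Gjc3* in SGC-like cells differed by -0.09 (95% interval -1.33 to 1.15), with the spread between libraries of 1 condition as wide as between conditions. *Gjb1* in Schwann-like cells differed by -0.21 (95% interval -1.05 to 0.62). All 3 intervals lie within a log2 difference of 2 in either direction, the size that a call asks for.

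In the vessel wall, *Gja4* of mural-like cells differed by -0.03 (95% interval -0.90 to 0.84). *Gjc1* of mural-like cells, at 189 and 253 CPM in control and 173 and 164 CPM after injury, did not overlap between conditions, as was so for 29.2% of all gene-type pairs tested, but the difference of -0.34 (SE 0.32, 95% interval -1.08 to 0.40) did not pass the test. *Gjb6* of connective tissue-like cells differed by -0.24 (95% interval -1.13 to 0.65) and *Gjb2* by 0.44 (95% interval -1.07 to 1.95). The other pair of groups without overlap was *Gjb1* in SGC-like cells, from 0 and 3.84 CPM to 6.67 and 4.78 CPM (log2 difference 0.83, 95% interval -0.85 to 2.51), where the 0 rests on 74 cells. Left without a library, this difference ran from 0.60 to 6.02, the latter without control 2, when the control group is at 0 UMIs and the size depends on the prior count.

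**Figure D4:**
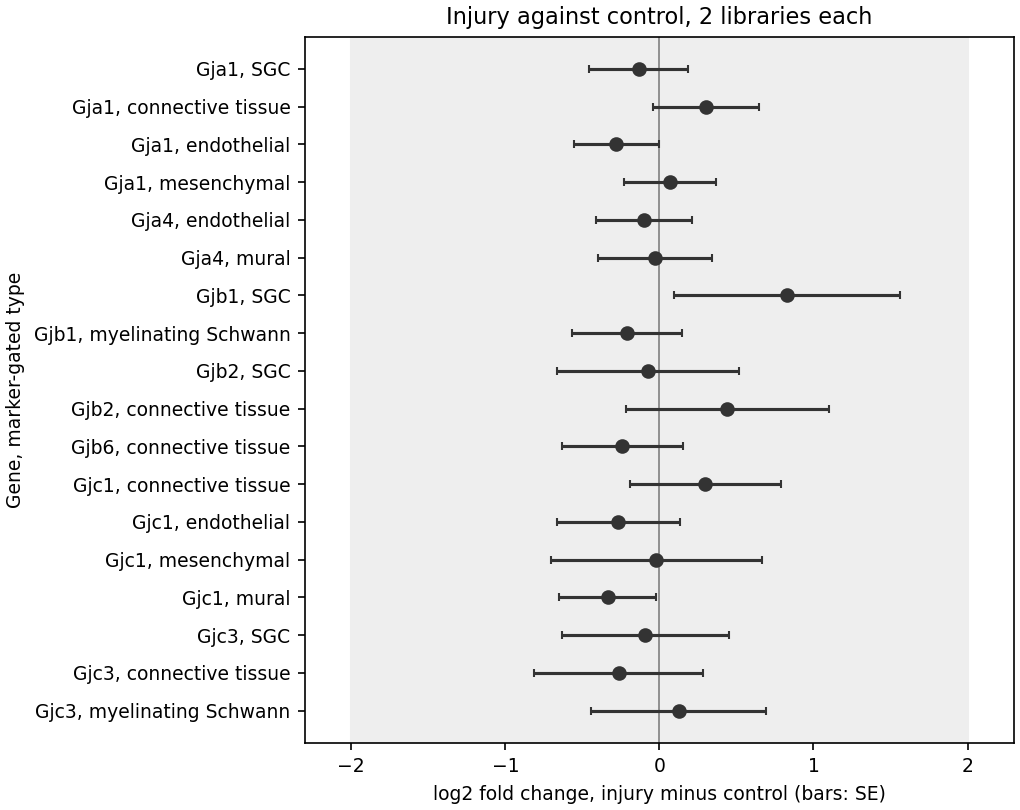
Log2 difference, injury minus control, of each connexin in each cell type with enough UMIs (18 tests), with bars of 1 SE and the region within 2 of 0 shaded. All points lie between -0.34 and 0.83.

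Whether an effect of injury differed between types was tested as an interaction, for each connexin among the types with at least 20 of its UMIs. In 14 contrasts none was called, against 0.0153% over all genes, and none had an unadjusted p under 0.05 with edgeR. They ranged from -1.27 to 0.46. The lowest was *Gjb1* in Schwann-like against SGC-like cells (SE 0.76, 95% interval -2.78 to 0.24, unadjusted p = 0.0991, edgeR). Over whole libraries there were 0 calls by edgeR or DESeq2, and 0% of all genes were called with edgeR. None of the connexins had an unadjusted p under 0.05 with edgeR, against 1.46% of all genes. All 7 connexins gave differences between -0.87 and 0.42. The lowest was *Gja4*, at 105, 32.4, 48.7 and 22.0 CPM, where control 1 stood above the others. Mural-like cells numbered 192, 40, 226 and 24 of 1301, 1341, 2377 and 1076 filtered cells, and within them *Gja4* differed by -0.03. *Gjb1* (15.6, 13.6, 10.5 and 9.46 CPM) and *Gjc1* (29.1, 19.6, 17.0 and 12.6 CPM) did not overlap between conditions, like 24.8% of all genes, and did not pass the test. In whole libraries, fewer cells of a type and less RNA per cell cannot be told apart. Of the companion lists, none of the 101 tests of connexin partners, 33 of glial coupling genes, and 15, 23 and 10 of arterial, venous and lymphatic genes was called for injury with edgeR. An unadjusted p under 0.05 was found in 0, 3, 1, 2 and 0 of them in that order. Over all genes the share with such a p ran from 1.27% in SGC-like to 8.18% in macrophage-like cells.

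Within cell types, the connexin differences among libraries that passed a test went with the library number and not with the condition, and only for *Gjc3*. In a fit with condition and number together, 2 of the 18 gene-type pairs differed between the libraries numbered 2 and those numbered 1 at an adjusted p under 0.05, and both were *Gjc3*. It was lower in the libraries numbered 2 in SGC-like cells, with means of 59.5 against 163 CPM (log2 difference -1.24, SE 0.24, adjusted p = 5.41e-05, edgeR, 2.37-fold), and in Schwann-like cells, with 65.0 against 174 CPM (-1.35, SE 0.40, adjusted p = 0.0181, 2.55-fold). Over the 6 types 2.84% of all gene-type pairs passed this test, with 406 of 10151 genes in SGC-like cells and 266 of 3972 among Schwann-like cells. *Gja1* in SGC-like cells went the other way, with 195 against 133 CPM (0.67, adjusted p = 0.0716), and *Gja4* in mural-like cells was at 423 against 703 CPM (-0.73, adjusted p = 0.154), and neither passed.

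Marker levels in these cells are set beside this difference. In SGC-like cells SGC markers summed to 11117, 18843, 15088 and 17584 CPM, and markers of the *Scn7a* glia to 226, 157, 198 and 156 CPM, with all 6 detected. In Schwann-like cells their own markers summed to 7935, 10053, 7820 and 9408 CPM, SGC markers to 194, 108, 130 and 70.7 CPM (7 of 10 detected) and endothelial markers to 63.1, 130, 62.8 and 124 CPM (5 of 10). Each of these moved with the number in both conditions. So did neuronal markers in both types, and in SGC-like cells endothelial markers and connective tissue markers, the latter at 202, 286, 301 and 388 CPM. Macrophage markers did not in either type, nor did myelinating Schwann markers in SGC-like cells, at 76.9, 66.7, 57.5 and 72.3 CPM. In Schwann-like cells markers of *Scn7a* glia, at 43.7, 21.6, 14.5 and 44.2 CPM (5 of 6), did not move with it. Connective tissue markers there, at 1048, 1950, 3082 and 2715 CPM (4 of 7), did not either. The libraries numbered 2 were also the deeper ones and held fewer Schwann-like cells (31 and 21, against 98 and 91). The part of these measures in the *Gjc3* difference was not tested, and the labels do not say what the number stands for.

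**Figure D5:**
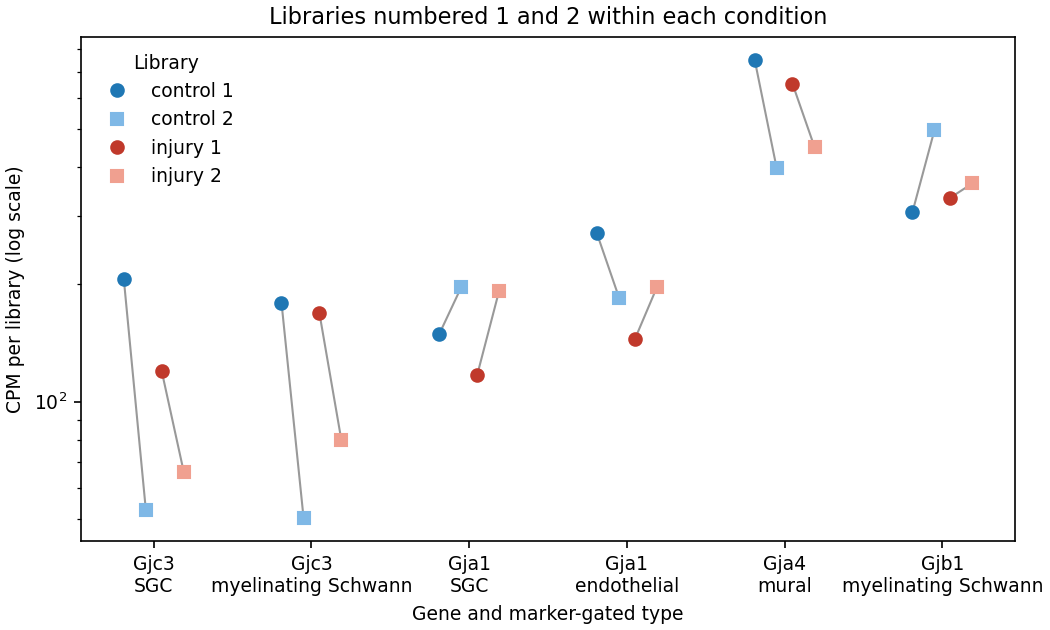
CPM of 6 gene-type pairs in the libraries numbered 1 and 2, joined within each condition, on a log axis. *Gjc3* falls from number 1 to number 2 in both conditions, in SGC-like cells from 207 to 52.8 CPM in control and from 120 to 66.2 CPM after injury.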

How the data were processed

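The authors deposited 4 matrices of raw UMI counts per gene and barcode, made with Cell Ranger and, per the labels, the genome build mm10. Partek is named for later steps, which are not part of the files. The deposited counts carry no cell names or cell types and had not been through the cell limits of the methods, which removed 880 of the barcodes. Versions of these tools are not given in the sample labels. Reads are tags of the 3′ end, counted once per UMI, and reach of the tag into a transcript can differ between genes.

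From the counts, the limits of the methods were applied to UMIs (stated there for reads), so the cells kept need not be those of the study. They are 600 and 15000 UMIs, 500 and 4000 genes, and a mitochondrial share under 10%. A cell was assigned to the gate whose summed markers, scaled to their 99th percentile, led with a score of at least 0.25 and at least 2 detected markers, unless another gate reached 0.6 of that score. This gave 5240 gated cells, 505 cells of more than 1 gate and 350 below every gate. Mural-like cells join the pericyte gate, the smooth muscle gate and cells of both. Doublets were not removed. Scrublet marked 37 barcodes (0.530%), which were left out as an alternative.

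UMIs were summed per library and type for types with at least 10 cells in each library. The arterial against venous test has no such minimum, and its smallest sum holds 8 cells. Genes with at least 20 UMIs were tested with edgeR 4.0.16 in R 4.3.3 (TMM, quasi-likelihood), with library as a block between cell types and no block between conditions, Benjamini-Hochberg adjusted over all genes of a comparison. DESeq2 1.42.0 was an alternative. The SE of an edgeR difference was derived as its absolute size divided by the square root of F. The 95% intervals of differences came from this SE and the t distribution. Both are approximate, and they are unreliable where a type held almost no UMIs. Cell steps ran in Python 3.11.15 with scanpy 1.11.5. The scripts were tested on simulated data. Shares of cells carry exact binomial (Clopper-Pearson) intervals at 95%, and the limit for a share or level of 0 is 3 counts of the total. Both cover counting error only. The p-values between conditions rest on 2 libraries each.

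The connexins, gates and companion lists were chosen with earlier results of these data known. The text names the 8 connexins, the genes of these lists and, for each connexin with at least 30 UMIs, the 3 genes of highest r. The leading genes of the monocyte gate were named after their values were seen. The interaction among types with at least 20 UMIs, the contrast of library numbers, the joined mural cells and the arterial against venous test were added after seeing the data. The study describes batches of pooled mice, but the sources used here do not say which libraries form a batch, so the number 2, given to 1 library of each condition, is not taken to mark one.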

Additional observations from a re-analysis of the deposited data

How the results depend on the processing

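The 15 higher calls between cell types became 13 with DESeq2, 16 with all deposited barcodes and 14 to 17 when a library was left out. The 14 neighbour contrasts under an adjusted p of 0.05 became 11 with DESeq2 and 9 to 13 when a library was left out, with the 9 without injury 1. Lost with 1 library left out were the contrasts of *Gja1* in SGC-like against mesenchymal-like cells (without control 2) and in connective tissue-like against Schwann-like cells, of *Gjb1* in SGC-like against connective tissue-like cells (both without injury 1), of *Gjb2* in SGC-like against mural-like cells (without any of the 4), of *Gjc1* in mesenchymal-like against Schwann-like cells (without control 1, control 2 or injury 1) and of *Gjc3* in connective tissue-like against mural-like cells (without control 1 or injury 1). The lower type of these contrasts held 1 to 5 UMIs, except in the first.

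Contrasts near 0 changed sign. *Gja1* in endothelial-like against SGC-like cells was 0.037 with DESeq2 size factors, 0.045 with no filter on low counts, 0.055 with the DESeq2 test, 0.048 with a stricter gate and -0.014 to 0.34 with a library left out. *Gjc3* in Schwann-like against SGC-like cells was -0.0056 with DESeq2. The stricter gate left too few dendritic-like and monocyte-like cells.

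The count of 0 for injury held under all alternatives run, for cell types, whole libraries and interactions, and single differences changed sign. With a library left out, *Gja1* ran from -0.55 to 0.21 in SGC-like and -0.29 to 0.32 in mesenchymal-like cells, *Gjc3* from -0.98 to 0.83 in SGC-like, -0.54 to 1.29 in Schwann-like and -0.64 to 0.45 in connective tissue-like cells, *Gjb1* from -0.58 to 0.24 in Schwann-like cells, *Gjb2* from -0.15 to 0.26 in SGC-like and -0.38 to 1.59 in connective tissue-like cells, *Gjb6* from -0.80 to 0.52 in connective tissue-like cells, *Gja4* from -0.32 to 0.21 in endothelial-like and -0.38 to 0.48 in mural-like cells, and *Gjc1* from -0.51 to 0.41 in endothelial-like and -0.33 to 0.35 in mesenchymal-like cells. *Gja4* in mural-like cells was 0.0039 with no filter on low counts. *Gjc1* in mesenchymal-like cells was 0.11 with DESeq2 and 0.30 with all deposited barcodes. Over whole libraries, the ranges were -0.60 to 0.96 for *Gja1*, -1.65 to 0.32 for *Gja4*, -0.16 to 1.61 for *Gjb2* and -0.26 to 0.88 for *Gjc3*, and with all deposited barcodes *Gja1* was 0.059 and *Gjb6* 0.046. The cause of these changes was not tested.

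The fit with the replicate number as a block made 0 injury calls, within cell types and over whole libraries. It turned *Gjc1* in mesenchymal-like cells to 0.12 and *Gja1* over whole libraries to 0.11. The deviations of same-numbered libraries from their condition's mean correlated over genes (r of 0.33 to 0.67 by type), but with 2 libraries per condition and no label for what the number marks, this does not show that the numbers pair them.

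Shares of cells with a UMI depend on depth. Thinned to 1000 UMIs per cell, they were 13.1% for *Gja1* and 9.77% for *Gjc3* in SGC-like cells, 16.2% for *Gja1* in endothelial-like, 8.03% for *Gja1* in mesenchymal-like, 41.0% for *Gja4* and 16.3% for *Gjc1* in mural-like, 23.8% for *Gjb1* and 14.5% for *Gjc3* in Schwann-like, and 6.77% for *Gjb6* in connective tissue-like cells.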

Other observations

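Pannexins form membrane channels related in fold to connexin hemichannels. *Panx1* had 985 UMIs over all barcodes, and 716 of them were in barcodes removed by the cell limits. The removed barcodes with neuronal markers held 425 of these, at 76.2 CPM, and 141 of the 215 *Panx2* UMIs, at 25.3 CPM. In the filtered cells *Panx1* was called higher in dendritic-like cells (log2 difference 2.01, adjusted p = 0.00361, edgeR) and lower in mural-like cells (-2.41, adjusted p = 0.00719). *Panx3* had 2 UMIs.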
